A study of Arabidopsis thaliana with 4 samples.

Results

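The plant defensins of the PDF1 group, their companion pathogenesis-related genes and the transcription factors that drive them were followed across 3 Arabidopsis thaliana genotypes. The genes were listed by locus, as PDF1.1, PDF1.2A, PDF1.2b, PDF1.2c, PDF1.3, PDF1.4, PR3, PR4, ORA59 and ERF1, and not by their measured values. All 10 were among the 20462 genes measured, out of 25382 genes with a matched probe. PR3 had 2 probes and every other gene had 1.

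Jasmonate and ethylene, which plants make when necrotrophic fungi attack, act together through a branch of defence signalling that ends in defensins. The ethylene factors EIN3 and EIL1 and release from jasmonate repressors switch on the AP2/ERF transcription factors ORA59 and ERF1, which bind the promoters of PDF1.2A and related genes. A second jasmonate branch, run by MYC2, serves wound responses and is known to oppose the first.

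AtC3H17 OX seedlings overexpress AtC3H17, which encodes a CCCH zinc finger protein, atc3h17-1 seedlings carry a mutant allele of it, and WT seedlings are the wild type. All were Col-0 plants, untreated, sampled whole 14 days after germination from agar plates kept at 22 °C in short days (8 h light, 16 h dark). The promoter of the overexpression construct, the number of lines, the lesion in atc3h17-1 and the number of seedlings per sample are not given in the sources used here. AtC3H17 OX was measured on 2 one-colour Agilent arrays, and atc3h17-1 and WT on 1 array each.

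The 4 arrays shared 1 slide and 1 scan, their 75th percentile of signal lay between 3273 and 3487, and 72.0% to 74.5% of spots were well above background. The AtC3H17 OX arrays differed from each other by 0.0308 (median size, log2), below the SD between repeated spots of 0.0938 on array 1 and 0.0811 on array 2. The labels name them replicates 1 and 2 without saying whether they came from separate plants. They were counted as 1 sample, so no p-value measures the spread between plants. Precision is limited by the small number of arrays. On the WT array the SD between repeated spots was 0.201. AT2G02160 was taken as the locus of C3H17 from general knowledge, since the reference table does not pair the symbol with it. Of its 3 probes, A_84_P803253 and A_84_P847169 were 2.19 and 2.49 higher on the log2 scale in AtC3H17 OX than in WT, and A_84_P221496 was at -0.03. In atc3h17-1, A_84_P221496 and A_84_P803253 were not well above background and A_84_P847169 was at 0.50 against WT. A gene was called when it differed at least 2-fold, on both AtC3H17 OX arrays or on the atc3h17-1 array.

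PDF1.1 and PDF1.2A were called higher in AtC3H17 OX than in WT and PDF1.4 was called lower, 3 of the 10 genes. Of all genes, 4.37% were called higher and 2.78% lower, 7.14% in either direction. In atc3h17-1, PDF1.2A was again called higher than in WT and PDF1.4 lower, 2 of the 10. Of all genes, 4.34% were called higher and 4.24% lower, 8.59% in either direction. Between the lines, PDF1.1 alone among the 10 was called, higher in AtC3H17 OX than in atc3h17-1. Of all genes, 2.8% were called higher and 1.66% lower, 4.46% in either direction. PDF1.1 passed the filter through AtC3H17 OX alone, so a higher value there was fixed by the filter, though not its size. Both lines were set against the same WT array, so their differences from WT share its errors. When limma took the AtC3H17 OX arrays as 2 samples, the 3 genes PDF1.1, PDF1.2A and PDF1.4 again passed, at an adjusted p under 0.05 and 2-fold, as 7.27% of all genes did. At any size, 9 of the 10 had an adjusted p under 0.05 by limma, as 66.4% of all genes had, with a spread taken from the array pair alone.

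PDF1.2A (AT5G44420) encodes the defensin most used as a readout of the ethylene and jasmonate branch. Its processed signal was 858 and 841 on the AtC3H17 OX arrays and 704 in atc3h17-1, against 183 in WT. The WT array was the low one, and the 3 arrays of the lines lay close together. PDF1.2A was thus 4.76-fold higher in AtC3H17 OX (log2 difference 2.25) and 4.09-fold higher in atc3h17-1 (log2 difference 2.03) than in WT. Across all 20462 genes these differences stood at percentile 99.0 for AtC3H17 OX and 98.4 for atc3h17-1. AtC3H17 OX and atc3h17-1 differed by 0.22, at percentile 78.6.

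PDF1.2b, PDF1.2c and PDF1.3 encode defensins nearly the same as that of PDF1.2A. PDF1.2c lies next to PDF1.2A in the genome, and PDF1.2b next to PDF1.3. PDF1.2b (AT2G26020) had a signal of 379 and 372 in AtC3H17 OX and 284 in atc3h17-1, against 215 in WT. PDF1.2c (AT5G44430) had 733 and 726 in AtC3H17 OX and 671 in atc3h17-1, against 501 in WT. PDF1.3 (AT2G26010) had 912 and 896 in AtC3H17 OX and 839 in atc3h17-1, against 562 in WT. WT was again the lowest array for each, but none reached 2-fold. In AtC3H17 OX, PDF1.2b was 1.80-fold, PDF1.2c 1.50-fold and PDF1.3 1.65-fold above WT. In atc3h17-1, PDF1.2b was 1.41-fold, PDF1.2c 1.43-fold and PDF1.3 1.59-fold above WT. In either line PDF1.2A stood further above WT than any of these close relatives. Whether the probe of one of these genes also binds the transcripts of the others was not tested.

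PDF1.1 (AT1G75830), a defensin known from seeds, was well above background in AtC3H17 OX alone. Its signal was 90.7 and 181 on the AtC3H17 OX arrays and 13.0 in atc3h17-1, against 17 in WT, where the scanner software gave errors of 13.2% and 11% for AtC3H17 OX, 66.7% for atc3h17-1 and 49.4% for WT. PDF1.1 was at least 3.39-fold higher in AtC3H17 OX than in WT and at least 3.25-fold higher than in atc3h17-1, and atc3h17-1 and WT could not be ordered. With normexp background correction, which adds an offset of 50 to every signal, the differences were 1.06 against WT, where array 1 fell short of 2-fold and the call was lost, and 1.31 against atc3h17-1, where it was kept. It was also the one member whose AtC3H17 OX arrays disagreed, by 1.01 on the log2 scale, where the other 9 agreed within 0.0697. Against WT it was at least 2.39-fold higher on array 1 and at least 4.81-fold higher on array 2. Among 11 seed marker genes, 5 were not well above background in AtC3H17 OX, 10 in atc3h17-1 and 10 in WT. CRA1, CRU3, OLEO1, OLEO2 and EM1 passed the filter through AtC3H17 OX alone, so a higher value there was fixed by the filter, and GEA6 was well above background in every genotype, at -1.43 and -1.47 in AtC3H17 OX and -2.79 in atc3h17-1, against -6.16 in WT (scaled log2 level). The median difference of AtC3H17 OX from WT was 1.14 over all 11 without the filter and 3.69 over the 6 that passed it. The summed level of all 11, in units of the 75th percentile and mostly background in WT, was 0.879 and 0.844 in AtC3H17 OX and 0.178 in atc3h17-1, against 0.0493 in WT. In atc3h17-1, GEA6 was the only seed marker well above background and made most of the sum. The part of the seed markers in the PDF1.1 result was not tested. In whole seedlings, fewer cells of a type and less RNA per cell cannot be told apart.

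**Figure D1:**
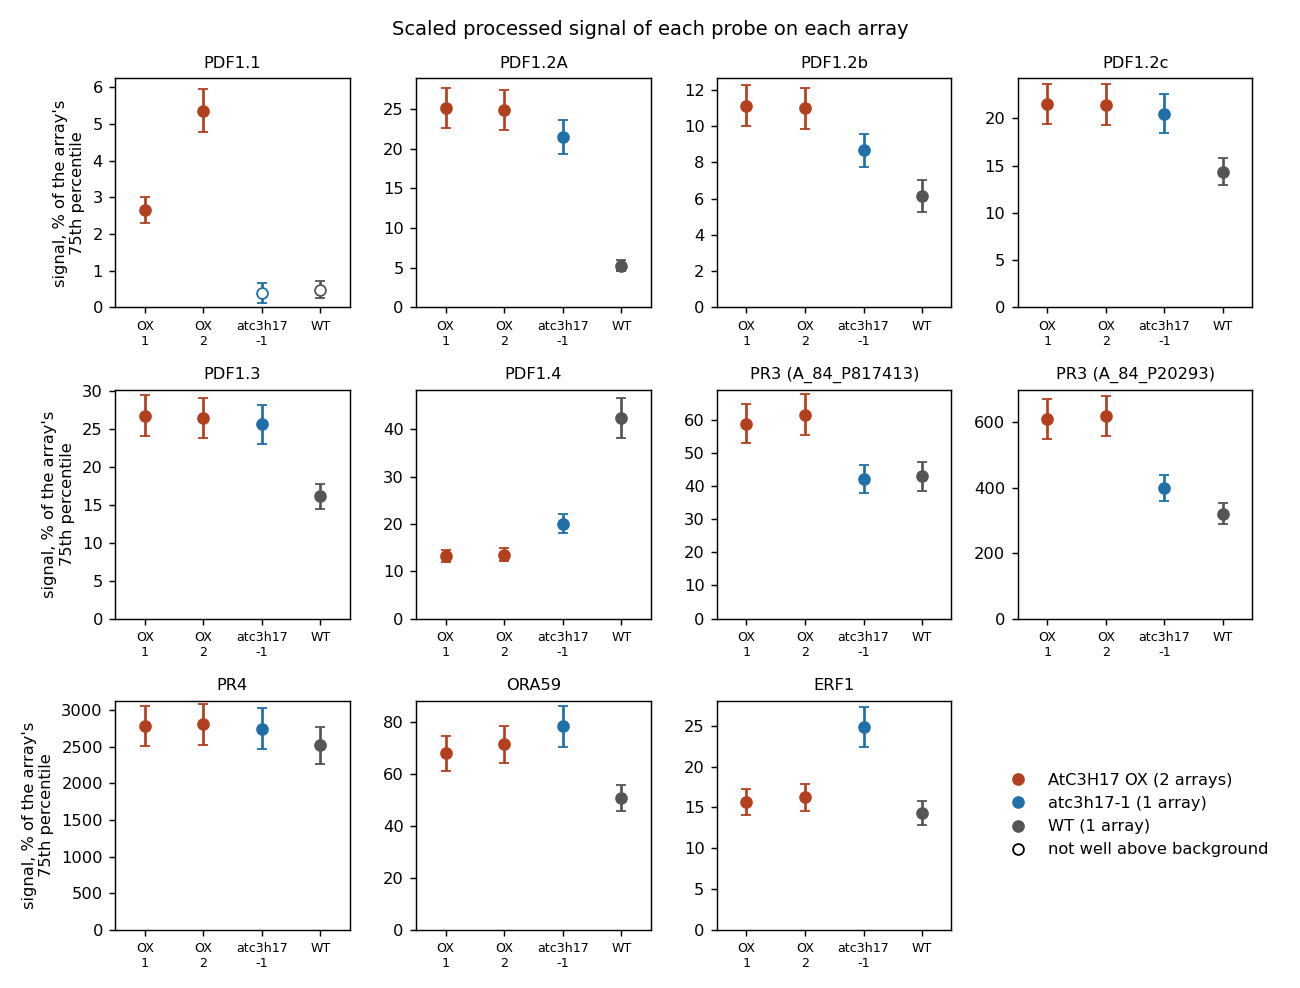
Processed signal of each probe of the 10 genes as a percentage of its array's 75th percentile (y axis, linear, from 0), on the AtC3H17 OX, atc3h17-1 and WT arrays (x axis), with the scanner software's error as bars and open points where a probe was not well above background. WT is the lowest array for 8 genes and the highest for PDF1.4, and PDF1.1 is well above background on the AtC3H17 OX arrays alone. PR3 is among the 8 by the mean of its probes, as atc3h17-1 is the lowest array at A_84_P817413.

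PDF1.4 (AT1G19610), a more distant defensin of the same group, went the other way. Its signal was 450 and 455 in AtC3H17 OX and 656 in atc3h17-1, against 1478 in WT, the highest array. PDF1.4 was lower than in WT by 3.18-fold in AtC3H17 OX (log2 difference -1.67, percentile 0.997 of all genes) and by 2.12-fold in atc3h17-1 (log2 difference -1.08, percentile 3.94). AtC3H17 OX stood below atc3h17-1 by a log2 difference of -0.59, at percentile 4.00.

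The size of these defensin differences depended on how the WT array was corrected for its uneven surface. The probes of PDF1.2A, PDF1.2b and PDF1.4 lay where the scanner software had multiplied the WT signal by 1.77, 2.17 and 1.96, while it multiplied the same spots on the other arrays by 1.09 to 1.2. Before this correction, PDF1.4 had a signal of 390 and 395 in AtC3H17 OX and 581 in atc3h17-1, against 753 in WT. Its differences from WT were then -0.92 in AtC3H17 OX and -0.31 in atc3h17-1, neither of them 2-fold. PDF1.2b had 316 and 311 in AtC3H17 OX and 241 in atc3h17-1, against 98.7 in WT, and was called higher in both lines, at 1.69 in AtC3H17 OX and 1.35 in atc3h17-1. PDF1.2A was at 2.90 in AtC3H17 OX and 2.70 in atc3h17-1. With the uncorrected signal and a smooth surface trend taken out instead, PDF1.4 was at -1.56 in AtC3H17 OX and -0.94 in atc3h17-1, and PDF1.2A at 2.23 in AtC3H17 OX and 2.05 in atc3h17-1. PDF1.2b was then at 0.93 in AtC3H17 OX and 0.62 in atc3h17-1 and was called in neither line. Normexp background correction starts from the raw median signals, so it too lacks the multiplicative detrending and is not a separate check on it. With normexp, PDF1.4 was at -0.79 in AtC3H17 OX and -0.30 in atc3h17-1 and was not called in either line. Normexp also put PDF1.2b at 1.19 in AtC3H17 OX, where it was called, and PDF1.1 at 1.06, where it was not. PDF1.2A was called higher than WT in both lines under every setting tried, whereas the calls of PDF1.1, PDF1.2b and PDF1.4 against WT depended on the setting.

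**Figure D2:**
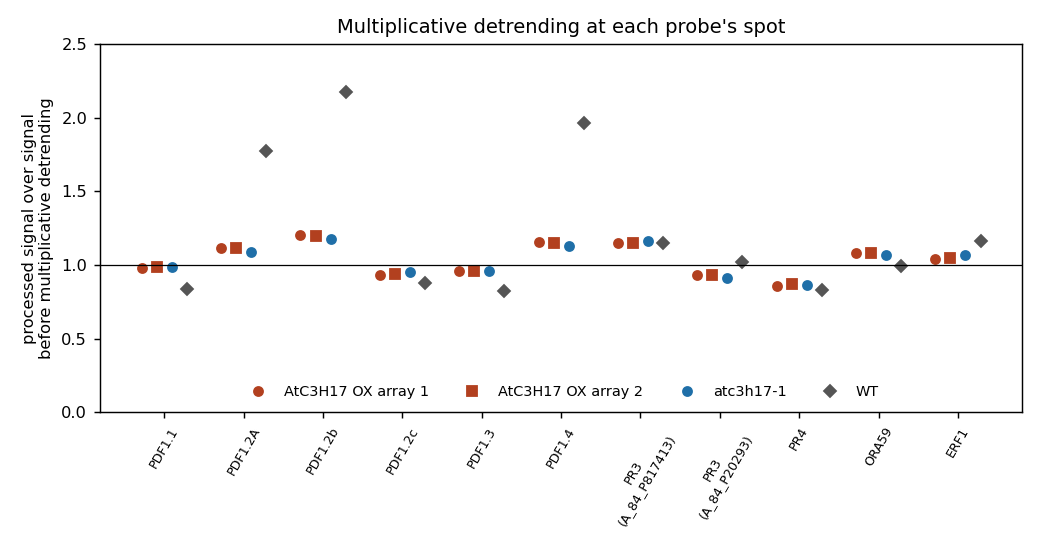
Ratio of processed signal to signal before multiplicative detrending at the spot of each probe (y axis, linear, from 0), for the AtC3H17 OX, atc3h17-1 and WT arrays (markers). The WT array stands apart for PDF1.2A, PDF1.2b and PDF1.4, at 1.77, 2.17 and 1.96.

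PR3 (AT3G12500) encodes a basic chitinase that cuts fungal cell walls. Its probe A_84_P20293 had a signal of 20782 and 20938 in AtC3H17 OX and 13096 in atc3h17-1, against 11165 in WT. Its probe A_84_P817413 had 2004 and 2080 in AtC3H17 OX and 1383 in atc3h17-1, against 1496 in WT. Both probes put AtC3H17 OX highest, but they ordered atc3h17-1 and WT differently. The difference between AtC3H17 OX and WT was 0.94 by A_84_P20293 and 0.49 by A_84_P817413 (mean 0.71, or 1.64-fold). Between atc3h17-1 and WT the probes gave 0.32 and -0.02 (mean 0.15). AtC3H17 OX exceeded atc3h17-1 by 0.56, or 1.48-fold, at percentile 92.4 of all genes.

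PR4 (AT3G04720), which encodes a hevein-like chitin-binding protein, showed the smallest differences of the 10. Its signal was 94937 and 95065 in AtC3H17 OX and 90033 in atc3h17-1, against 87907 in WT, with no spot saturated. Its differences from WT, 0.15 in AtC3H17 OX and 0.13 in atc3h17-1, were smaller than the 0.201 between repeated spots on the WT array.

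ORA59 (AT1G06160), the factor that integrates both hormones upstream of PDF1.2A, had a signal of 2319 and 2417 in AtC3H17 OX and 2567 in atc3h17-1, against 1770 in WT. WT was the lowest array, and atc3h17-1 lay slightly above both AtC3H17 OX arrays. ORA59 was 1.37-fold higher than WT in AtC3H17 OX (log2 difference 0.46) and 1.55-fold higher in atc3h17-1 (log2 difference 0.63), below 2-fold in both. ERF1 (AT3G23240), the other activator, had a signal of 534 and 550 in AtC3H17 OX and 814 in atc3h17-1, against 501 in WT. Here atc3h17-1 stood above all other arrays and AtC3H17 OX was 0.15 above WT, less than the repeated-spot SD. ERF1 was 1.73-fold higher in atc3h17-1 than in WT (log2 difference 0.79, percentile 94.1) and 1.56-fold higher in atc3h17-1 than in AtC3H17 OX, where the AtC3H17 OX minus atc3h17-1 difference of -0.64 stood at percentile 3.45. With the uncorrected signal and a smooth surface trend removed, ERF1 was 0.40 above WT in AtC3H17 OX and 1.01 above WT in atc3h17-1, where it was called.

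**Figure D3:**
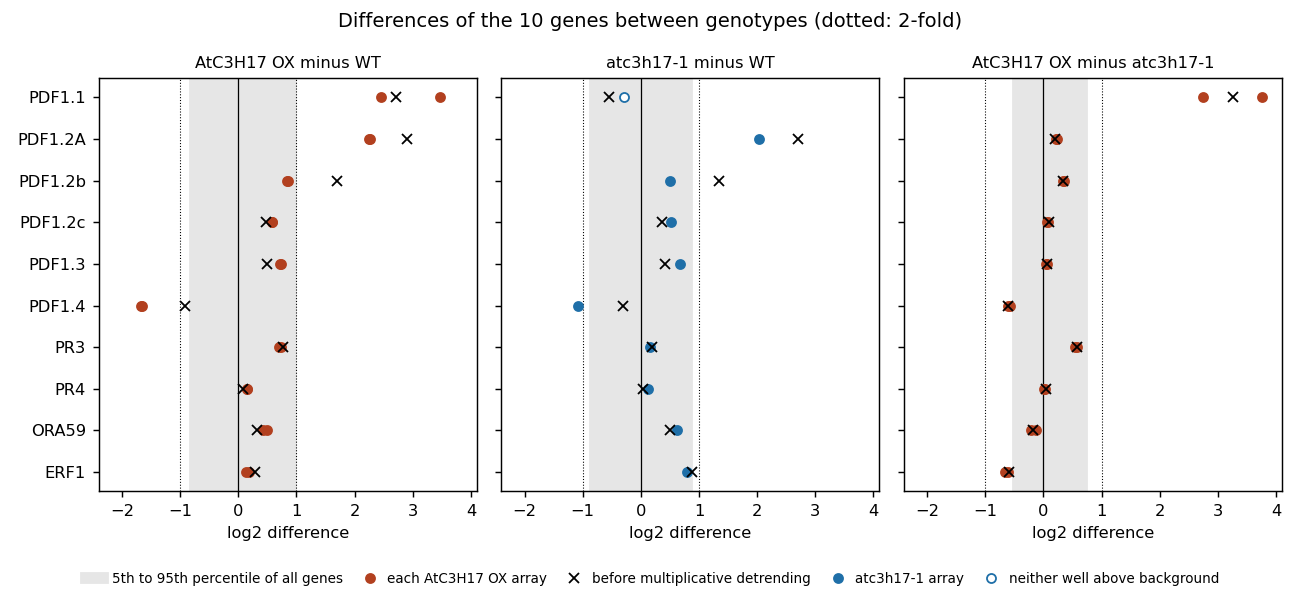
Log2 differences of the 10 genes (rows) for AtC3H17 OX minus WT, atc3h17-1 minus WT and AtC3H17 OX minus atc3h17-1, by array (filled points; open where neither array was well above background) and from the signal before multiplicative detrending (crosses). Grey bands span the 5th to 95th percentile of all genes, and dotted lines mark 2-fold. PDF1.2A lies beyond the band for both lines against WT and inside it between the lines, while PDF1.1 lies beyond it in both AtC3H17 OX panels, drawn against a WT or atc3h17-1 signal that was not well above background.

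Taking the 10 genes as a list, 9 were above WT in AtC3H17 OX and 8 in atc3h17-1, where 47% of all genes were above WT in either line. Their median difference from WT was 0.65 in AtC3H17 OX and 0.50 in atc3h17-1, beside -0.03 in AtC3H17 OX and -0.02 in atc3h17-1 over all genes. For 8 of them (all but PDF1.1 and PDF1.4) WT was the lowest of the 4 arrays, which held for 34.8% of all genes. PR3 counts here by the mean of its probes, which ordered atc3h17-1 and WT differently. PR4 counts by differences below the repeated-spot SD of the WT array. Between AtC3H17 OX and atc3h17-1, 7 of the 10 were above 0, where 48.8% of all genes were, with a median of 0.06. Against WT, 7 of the 10 in AtC3H17 OX and 8 in atc3h17-1 stayed below 2-fold. PDF1.1, above 0 in both AtC3H17 OX comparisons, had this direction fixed by the filter.

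The 5 other genes whose differences from WT were nearest to those of PDF1.2A, among 18774 genes compared, were the phospholipase C gene NPC4, the germin-like gene GLP9, AT2G25625, the aldo-keto reductase gene ChlAKR and the sulfate transporter gene SULTR4;2. Likeness was the Euclidean distance over the 3 log2 differences from the 1 WT array, so AtC3H17 OX, with 2 arrays, weighed more than atc3h17-1. It ran from 0.0456 for NPC4 to 0.148 for SULTR4;2. These distances were below the 0.201 between repeated spots on the WT array, so the order of the 5 genes cannot be told from these arrays. NPC4 was at 2.25 in AtC3H17 OX and 2.01 in atc3h17-1. The nearest of the listed defence genes, PDF1.2b, lay at a distance of 2.51.

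Defensins and thionins outside the group mostly stood below WT. Of 8 measured among 11 such genes, 6 were below WT in AtC3H17 OX and 6 in atc3h17-1. Of all 20462 genes, 10853 were below WT in AtC3H17 OX and 10845 in atc3h17-1. Among the 8, 1 was called higher in AtC3H17 OX, the thionin gene THI2.1, at least 6.13-fold above WT, and 0 were called lower. For THI2.1, AtC3H17 OX array 1 minus array 2 was -0.90 (log2). In atc3h17-1, THI2.1 was called higher, at least 2.08-fold, and PDF2.5 lower. Of all genes, 7.14% were called in either direction in AtC3H17 OX and 8.59% in atc3h17-1. The median difference of the 8 from WT was -0.46 in AtC3H17 OX and -0.28 in atc3h17-1. PDF2.5 was at -1.19 in AtC3H17 OX, where only 1 array passed 2-fold, and at -1.28 in atc3h17-1. In AtC3H17 OX, PDF2.1 was at -0.77, PDF2.2 at -0.71, PDF2.3 at -0.24 and PDF2.4 at -0.68, all below 2-fold. In atc3h17-1, PDF2.1 was at -0.38, PDF2.2 at -0.19, PDF2.3 at -0.44 and PDF2.4 at -0.10. PDF2.6 had no probe that passed the filter. PDF1.5 was at -0.07 in AtC3H17 OX and 0.71 in atc3h17-1. The differences of PDF1.5 in AtC3H17 OX and of PDF2.2 and PDF2.4 in atc3h17-1 were smaller than the 0.201 between repeated spots on the WT array. PDF2.1, PDF2.2 and PDF2.3 lie 8, 11 and 7 genes from AT2G02160, the locus taken as C3H17.

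Of 14 other chitinase genes, 1 was called higher in AtC3H17 OX (ChiC, 1.19) and 1 lower (AT1G56680, -1.94), while 0 were called higher and 4 lower in atc3h17-1. Among all genes, 4.37% were called higher and 2.78% lower in AtC3H17 OX, and 4.34% and 4.24% in atc3h17-1. The lowest chitinase genes in atc3h17-1 were AT1G56680 at -2.08, AT2G43610 at -2.08 and AT1G02360 at -1.74. ChiC was not called with normexp or before detrending (1.00 in both). Their median difference from WT was -0.05 in AtC3H17 OX and -0.60 in atc3h17-1. Most root markers were also lower in atc3h17-1. Of 23 measured among 24, 4 were called lower in AtC3H17 OX, where 3 stood above WT, and 19 in atc3h17-1, with summed levels of 11.1 and 10.9 in AtC3H17 OX and 5.50 in atc3h17-1, against 14.2 in WT. The casparian strip gene CASP1 was well above background on every array, at -0.77 in AtC3H17 OX and -2.47 in atc3h17-1 against WT. Of 12 leaf markers none was called, and their summed levels were 776 and 769 in AtC3H17 OX and 750 in atc3h17-1, against 694 in WT. The part of root content in the chitinase and defensin differences was not tested.

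Upstream, the ethylene synthesis genes called were ACC synthases, which make the ethylene precursor and form the larger part of that list. Of 13 genes measured, 1 was called higher (ACS2, 1.64) and 1 lower (ACS4, -1.13) in AtC3H17 OX, and 2 were called higher in atc3h17-1, ACS2 at 3.08 and ACS7 at 1.14. Over all genes, 4.37% were called higher and 2.78% lower in AtC3H17 OX, and 4.34% and 4.24% in atc3h17-1. ACS2 was dim in WT, at a scaled log2 level of -6.23. With normexp, neither ACS2 (0.79) nor ACS4 (-0.83) was called in AtC3H17 OX, and ACS7 lost its call in atc3h17-1 with a smooth surface trend removed (0.99). Of 16 genes of ethylene perception and signalling, ERS2 and CTR1 were called higher in both lines and 0 lower. CTR1, the kinase that holds the pathway off, was at 1.03 in AtC3H17 OX and 1.22 in atc3h17-1, but was not called with a smooth surface trend removed, at 0.75 in AtC3H17 OX and 0.98 in atc3h17-1. The receptor gene ERS2 was at 1.61 in AtC3H17 OX and 1.29 in atc3h17-1, but only 1 of its 3 probes was well above background in WT, and with the brightest probe alone it was not called in atc3h17-1 (0.60). In AtC3H17 OX, the central relay gene EIN2 was at -0.18, EIN3 at -0.08 and EIL1 at 0.12, and in atc3h17-1 EIN2 was at -0.15, EIN3 at -0.10 and EIL1 at 0.08, none of them 2-fold.

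None of 13 genes for jasmonate perception and co-regulators of the branch was called in either line. All 13 were above WT in AtC3H17 OX, between 0.20 and 0.58 (median 0.24), and 10 were above WT in atc3h17-1 (median 0.11). In either line 47% of all genes were above WT, with medians of -0.03 in AtC3H17 OX and -0.02 in atc3h17-1. The smallest difference in AtC3H17 OX and the median in atc3h17-1 lay below the 0.201 between repeated spots on the WT array. Every one is set against that same WT array. The repressor gene JAZ1 was the highest of the 13, at 0.58 in AtC3H17 OX and 0.88 in atc3h17-1. MYC2 was at 0.31 in AtC3H17 OX and -0.13 in atc3h17-1.

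Among 20 other ERF family factors measured of 23, 1 was called higher and 2 lower in AtC3H17 OX, and 2 higher and 1 lower in atc3h17-1. For comparison, 4.37% of all genes were called higher and 2.78% lower in AtC3H17 OX, and 4.34% and 4.24% in atc3h17-1. ERF2, an activator of the branch, was at 1.24 in AtC3H17 OX and 0.64 in atc3h17-1. ORA47, which acts on jasmonate synthesis genes, was at -1.59 in AtC3H17 OX and -2.23 in atc3h17-1, and RAP2.6 at -1.30 in AtC3H17 OX and -0.72 in atc3h17-1. ERF12 was at least 2.39-fold higher in atc3h17-1 than in WT, and at least 2.04-fold higher in AtC3H17 OX, where 1 array fell short of 2-fold. TDR1, the gene next to ERF1, was at 1.19 in atc3h17-1 against WT. In AtC3H17 OX, TDR1 was not well above background and at least 1.50-fold lower than WT. TDR1 thus shared with ERF1 a higher level in atc3h17-1 than in AtC3H17 OX, by at least 3.44-fold for TDR1. With normexp, ORA47 was at -0.94 in AtC3H17 OX, ERF12 at 0.48 and TDR1 at 0.75 in atc3h17-1, and none of these was called.

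Outputs of the MYC2 branch held more calls than the 10 genes, a difference that was not tested. Of 14 MYC2 branch output genes, 9 were called higher in AtC3H17 OX and 8 in atc3h17-1, with 0 lower in either. Of all genes, 4.37% were called higher in AtC3H17 OX and 4.34% in atc3h17-1. Both counts of outputs include THI2.1, TAT3 and LOX4, which were not well above background in WT. For these, the filter fixed a value above WT in AtC3H17 OX, atc3h17-1 or both. The median difference of the 14 from WT was 1.43 in AtC3H17 OX and 1.24 in atc3h17-1. The vegetative storage protein gene VSP2 was at 3.11 in AtC3H17 OX and 1.72 in atc3h17-1, and the transcription factor gene NAC019 at 2.85 in AtC3H17 OX and 2.48 in atc3h17-1. The tyrosine aminotransferase gene TAT3 was at least 6.93-fold higher in AtC3H17 OX and at least 4.38-fold higher in atc3h17-1, and the lipoxygenase gene LOX4 at least 3.99-fold in AtC3H17 OX and at least 5.26-fold in atc3h17-1. Of 3 PR genes of the salicylate type, the glucanase gene BGL2 was called higher in both lines, at 2.07 in AtC3H17 OX and 1.16 in atc3h17-1. PR1 was called higher in atc3h17-1, at least 2.32-fold, and was not well above background on AtC3H17 OX array 2 or in WT. With normexp PR1 was at 0.78 in atc3h17-1 and was not called.

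**Figure D4:**
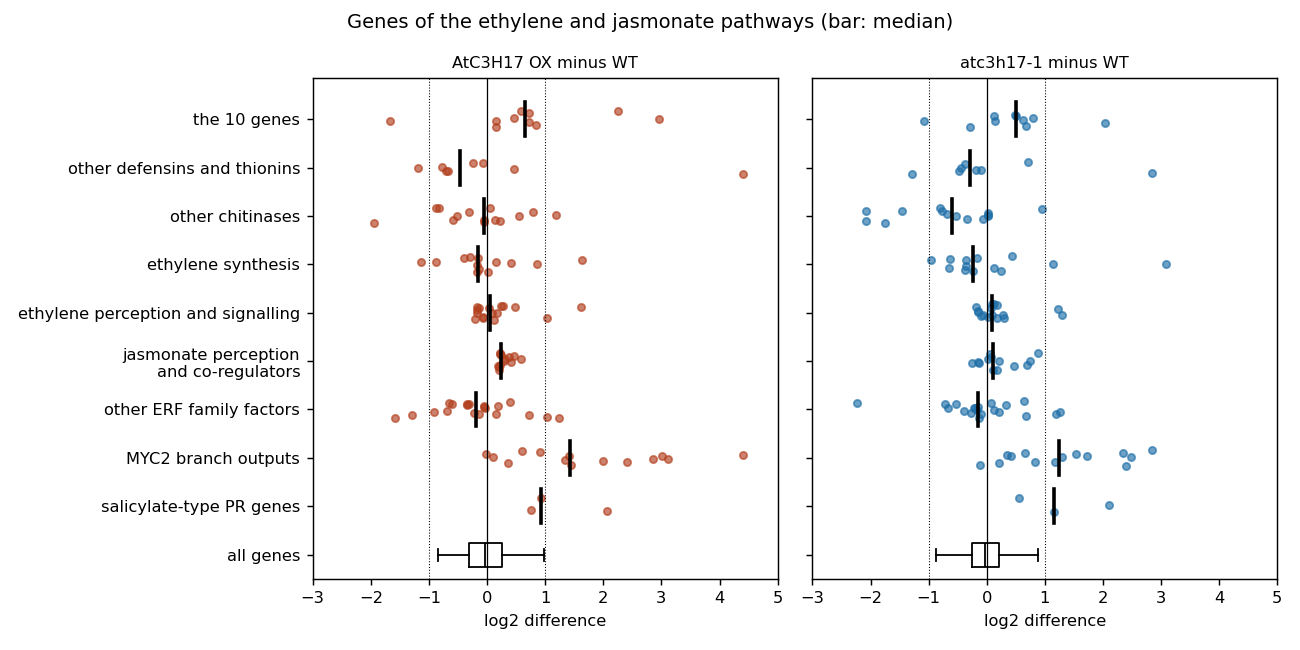
Log2 differences from WT of the 10 genes and of 8 lists of related genes (points, with black bars at the median), for AtC3H17 OX and atc3h17-1, above a box of all genes with whiskers at the 5th and 95th percentiles. Genes not well above background in WT are drawn at the difference from their measured WT signal, not at the bound given in the text. Dotted lines mark 2-fold. The medians of the MYC2 branch outputs are 1.43 in AtC3H17 OX and 1.24 in atc3h17-1, and those of the 10 genes 0.65 in AtC3H17 OX and 0.50 in atc3h17-1.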

How the data were processed

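Total RNA of whole seedlings was labelled with Cy3 and measured on 4 arrays, per the labels' protocols. The deposited processed signal is a linear intensity made by Agilent Feature Extraction 11.0.1.1, which subtracted the background and detrended each array multiplicatively, per the file headers. The series value table also holds intensities and matched the processed signal within 0.01 on the log2 scale for all but 43 to 49 of 43603 probes. Other pixel, error and flag columns were used as deposited.

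Each processed signal was put on the log2 scale and the array's 75th percentile subtracted. Control and outlier spots were left out, and 32972 probes were kept, those that the scanner software marked well above background on all arrays of 1 genotype or more. Of all probes, 34348 were matched to a locus by transcript accession through the TAIR10.1 table. The files follow TAIR10, so no coordinates are given. A gene is the mean of its kept probes. A fold against a group not well above background is given as "at least": the dim side is set to the dim probe's signal or the lowest signal marked well above background on that array, whichever is higher.

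The members and lists were chosen with earlier results of these data known. Text names all members, every PDF2 defensin, and from each list other than the root, leaf and seed markers up to 3 called genes with the largest difference per line; CASP1, the seed markers, PDF1.5, EIN2, EIN3, EIL1, JAZ1 and MYC2 were named after their values were seen.

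Alternatives were normexp (offset 50) on the median spot and background signals, since the mean spot signal was not used here, other scalings and filters, the brightest probe, removal of a smooth surface trend, the series table, each AtC3H17 OX array left out, and limma 3.58.1 in R 4.3.3 with the AtC3H17 OX arrays as 2 samples. The signal before multiplicative detrending, with and without a smooth trend removed, was added after seeing the data. Normexp, too, was run on signals without multiplicative detrending. Python 3.11.15 with pandas 2.3.3, numpy 2.4.6, scipy 1.17.1 and matplotlib 3.10.9 did the rest.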

Additional observations from a re-analysis of the deposited data

How the results depend on the processing

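No paired analysis was possible because atc3h17-1 and WT have 1 array each and no replicate number. Each genotype is 1 sample, so no difference of any size was set against plant-to-plant variation. PDF1.1 in atc3h17-1 and WT was below the detection limit. Against WT and between the lines, the 9 other members kept the sign of every difference under all settings. PDF1.2A ranged from 2.17 to 2.90 above WT in AtC3H17 OX and from 1.98 to 2.70 in atc3h17-1. With normexp, PDF1.1 lost its call against WT in AtC3H17 OX and PDF1.2b gained one. With limma, PDF1.1 (adjusted p = 0.0404), PDF1.2A (adjusted p = 0.00549) and PDF1.4 (adjusted p = 0.00549) passed in AtC3H17 OX. These p-values rest on 1 residual degree of freedom from the array pair.

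Of the members, normexp called 0 lower in AtC3H17 OX and 0 in atc3h17-1. A stricter filter, with detection required on all arrays, which drops PDF1.1, called 1 higher in AtC3H17 OX than in WT and 0 than in atc3h17-1. The signal before detrending called 0 lower in AtC3H17 OX, and 2 higher and 0 lower in atc3h17-1. With the smooth trend removed from it, 2 were called higher and 0 lower in atc3h17-1. Leaving out either AtC3H17 OX array left every count of members within 1.5 times. Over all genes, normexp called 286 lower in AtC3H17 OX and 424 in atc3h17-1 than in WT, and 178 higher and 136 lower in AtC3H17 OX than in atc3h17-1. The stricter filter gave 591 higher and 349 lower in AtC3H17 OX, 429 and 470 in atc3h17-1, and 319 and 90 between the lines. The signal before detrending gave 1448 higher in AtC3H17 OX and 1436 in atc3h17-1. The cause of these shifts was not tested beyond the fewer probes of the stricter filter.

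Of 184 list counts, 151 stayed within 1.5 times and 33 moved. Other defensins and thionins called in AtC3H17 OX numbered 2 with normexp, quantile normalization, no filter or limma, 3 before detrending, 0 with the stricter filter, and 1 to 2 with an AtC3H17 OX array left out. In atc3h17-1 they numbered 4 without a filter and 1 with the stricter filter. Other chitinases called in AtC3H17 OX numbered 1 with normexp. Ethylene synthesis genes called in AtC3H17 OX numbered 0 with normexp and 1 with a smooth trend removed, from either signal. Ethylene perception and signalling genes numbered 1 in AtC3H17 OX with quantile normalization, limma or a smooth trend removed, and 1 in atc3h17-1 with normexp, the stricter filter, the brightest probe or a smooth trend removed. Jasmonate perception genes called in atc3h17-1 numbered 1 with normexp and 1 before detrending. Other ERF factors called in atc3h17-1 numbered 1 with normexp, 5 without a filter and 1 with the stricter filter, and in AtC3H17 OX 3 to 5 with an array left out. MYC2 branch outputs called in atc3h17-1 numbered 4 with the stricter filter. Salicylate-type PR genes called in atc3h17-1 numbered 1 with normexp or the stricter filter, and in AtC3H17 OX 2 with a smooth trend removed and 1 to 2 with an array left out.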
